A study of Homo sapiens with 6 samples.

Results

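The genes described here are 42 genes of the G2 and M phases of the cell cycle other than the genes of the spindle assembly checkpoint: CDK1 and its cyclins, mitotic kinases, and proteins of the chromosome, centromere, spindle and cleavage furrow. They were taken from a list of gene symbols, and all 42 were found among the 62111 gene IDs of both deposited tables. Of these, 41 averaged 1 TPM or more across all 6 libraries and were tested, as were 15493 genes in all. NUSAP1 was the member that did not.

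RNA was sequenced from K562, an established human erythroleukaemia line derived from chronic myeloid leukaemia, in 3 libraries labelled SF3B1-K700E and 3 labelled SF3B1-wt. SF3B1 is a subunit of the U2 snRNP that recognises the branch point of introns, and K700E is a recurrent substitution in it in myeloid neoplasms. The labels give no treatment and no time, and do not say how K700E was introduced, whether the mutant cells are a clone, or whether replicates are separate cultures, so each p-value measures only the spread between these libraries, which may be technical. Values are TPM, a length-scaled share of the reads of a library: reads divided by gene length and scaled to the same total in every library, so a TPM is a share of the library and not an amount per cell. The tables of the genotypes were deposited separately, and each library in them was scaled alone.

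Progress from G2 into mitosis is driven by CDK1 bound to cyclin A or cyclin B, and mitotic exit follows when those cyclins are degraded. Most genes that carry out mitosis are transcribed together late in the cycle: the MuvB complex, joined by B-MYB and then FOXM1, activates them in G2, and MuvB bound to the pocket proteins p107 and p130 silences them in resting cells. MuvB contacts the cell cycle homology region (CHR) near the start site, and the trimer NF-Y binds CCAAT boxes upstream of it. In an asynchronous culture the summed mRNA of such genes is widely used as an index of the share of cells in G2 and M. In bulk RNA, fewer cells in those phases and less mRNA in each of them cannot be told apart.

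Promoter sequences are shown because letters of these elements were found in more of the members' promoters than of all promoters, though not in every member. For 4 members whose values are described below, the 250 bases before the start site are given 5′ to 3′ on the strand of the gene, from RefSeq on GRCh38.p14, with the CHR (TTTGAA or TTCGAA) and the CCAAT box in capitals on either strand (TTCAAA and ATTGG when reversed).
CCNB2, chr15:59104896-59105145, plus strand: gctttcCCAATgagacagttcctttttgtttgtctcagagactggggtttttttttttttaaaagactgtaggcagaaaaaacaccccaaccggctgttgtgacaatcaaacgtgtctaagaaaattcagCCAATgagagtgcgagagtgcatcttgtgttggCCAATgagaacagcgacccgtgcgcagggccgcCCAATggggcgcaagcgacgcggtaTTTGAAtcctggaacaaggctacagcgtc
HMMR, chr5:163460382-163460631, plus strand: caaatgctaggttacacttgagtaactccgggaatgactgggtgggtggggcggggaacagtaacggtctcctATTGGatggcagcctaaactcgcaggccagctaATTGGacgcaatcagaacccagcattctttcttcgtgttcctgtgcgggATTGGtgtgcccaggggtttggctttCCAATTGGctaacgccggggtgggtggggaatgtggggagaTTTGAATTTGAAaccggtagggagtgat
CKS1B, chr1:154974431-154974680, plus strand: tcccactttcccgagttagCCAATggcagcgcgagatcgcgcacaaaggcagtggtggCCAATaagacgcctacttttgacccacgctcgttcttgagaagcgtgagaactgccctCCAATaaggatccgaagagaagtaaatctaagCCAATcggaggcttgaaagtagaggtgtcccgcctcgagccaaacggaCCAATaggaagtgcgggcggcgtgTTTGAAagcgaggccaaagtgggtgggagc
TUBB4B, chr9:137241037-137241286, plus strand: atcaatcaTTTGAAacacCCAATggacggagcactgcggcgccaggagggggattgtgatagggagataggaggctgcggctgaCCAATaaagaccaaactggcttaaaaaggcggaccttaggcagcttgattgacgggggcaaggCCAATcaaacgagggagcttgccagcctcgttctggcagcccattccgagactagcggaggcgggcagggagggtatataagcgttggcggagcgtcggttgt
The CCNB2 promoter held CCAAT boxes at 244, 120, 87 and 54 bases before the start site and a CHR at 29 bases before it. HMMR had a pair of adjoining CHR letters at 28 and 22 bases, and CKS1B had a CHR at 30 bases. In TUBB4B the CHR letters lay far from the start, at 242 bases, and the CCAAT boxes at 232, 166 and 103 bases.

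A promoter window of 300 bases, 250 before and 50 after the start, was found for 37 of the 42 members and for 27305 genes in all. Both strands were searched, letters that overlap were counted separately (in HMMR a CCAAT and an ATTGG share the letters AT), and a gene was counted when any of its windows held the motif. CHR letters were present for 28 of 37 members (75.7%), against 19.5% of all genes. CCAAT was present for 28 of 37 (75.7%), against 39.7% of all genes, and a CHR with a CCAAT in the same window for 24 of 37 (64.9%), against 7.85%. A CHR within 50 bases of the start was found for 22 of 37 (59.5%), against 6.24%. These are matches of letters, and no binding was measured in these libraries. The 27 tested members with a CHR had a median log2 difference between K700E and WT of 0.00, and the 9 with a window but no CHR had a median of 0.05.

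The libraries held between 104642332 and 136588117 read ends, recovered from the TPM steps, and the least covered tested member in any library still had 1284, so counting error is small beside the spread between libraries. SF3B1 itself stood at 160, 136 and 118 TPM in K700E libraries, against 144, 98.9 and 115 TPM in WT libraries (138 ± 21.5 and 119 ± 22.6, SD, n = 3 each; limma adjusted p = 0.602), a level that cannot check a substitution. All 12 genes listed for K562 identity, erythroid genes together with BCR and ABL1, were expressed. Their sums were 4410 to 8690 TPM in K700E libraries and 3710 to 5980 TPM in WT libraries. Of 8 lymphoid markers 4 passed the filter, with sums of 202 to 376 TPM in K700E and 106 to 114 TPM in WT libraries carried almost wholly by CD3D, which was called higher in K700E (289 ± 85.6 and 99.8 ± 2.88 TPM, SD, n = 3 each; limma adjusted p = 0.0289), while MS4A1 and CD8A were at or near 0. Of 8 myeloid markers 2 passed, LYZ and ITGAM, with sums of 68.1 to 184 TPM in K700E and 120 to 138 TPM in WT. LYZ carried most of the sum (112 ± 56.3 TPM in K700E and 116 ± 8.01 TPM in WT, SD, n = 3 each). ITGAM stood at 4.01 ± 4.12 and 9.24 ± 2.49 TPM (limma adjusted p = 0.263). CD68 was listed at 0 in all 6 libraries, and the reason was not tested. Of 8 stromal and epithelial markers 5 passed (855 to 1350 TPM in K700E and 753 to 875 TPM in WT, mostly VIM). COL1A2, a collagen gene, was called higher in K700E at a low level (3.84 ± 1.87 and 0.0423 ± 0.00724 TPM, SD, n = 3 each; limma adjusted p = 0.0168). The part of these markers in the results below was not tested.

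The G2 and M genes did not differ detectably between the genotypes. None of the 41 tested members passed an adjusted p of 0.05 (limma on log2(TPM + 1), two-sided, Benjamini-Hochberg over 15493 genes), where 1.38% of all tested genes passed. That background itself rests on WT library 3: the 214 genes called by limma became 0 of 15493 when it was left out, with 1462 at an unadjusted p under 0.05. With all 6 libraries, 0 of 41 members had an unadjusted limma p under 0.05, against 2563 of the 15493 genes. A limma-voom fit of recovered reads called 0 members as well, against 219 of all genes. At an unadjusted p under 0.05 it had 0 members, against 2414 of all genes. The smallest limma adjusted p among the members was 0.386, for ANP32E. Only GTSE1 had groups that did not overlap, which 24.0% of all tested genes did.

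Summed over the 41 genes, the level was 5317, 4629 and 4313 TPM in K700E libraries 1, 2 and 3, against 5704, 3940 and 4790 TPM in WT libraries 1, 2 and 3. The group means were 4753 ± 513 TPM in K700E and 4811 ± 882 TPM in WT (SD, n = 3 each). WT library 1 was the highest of the 6 and WT library 2 the lowest, and the K700E libraries lay between them.

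**Figure D1:**
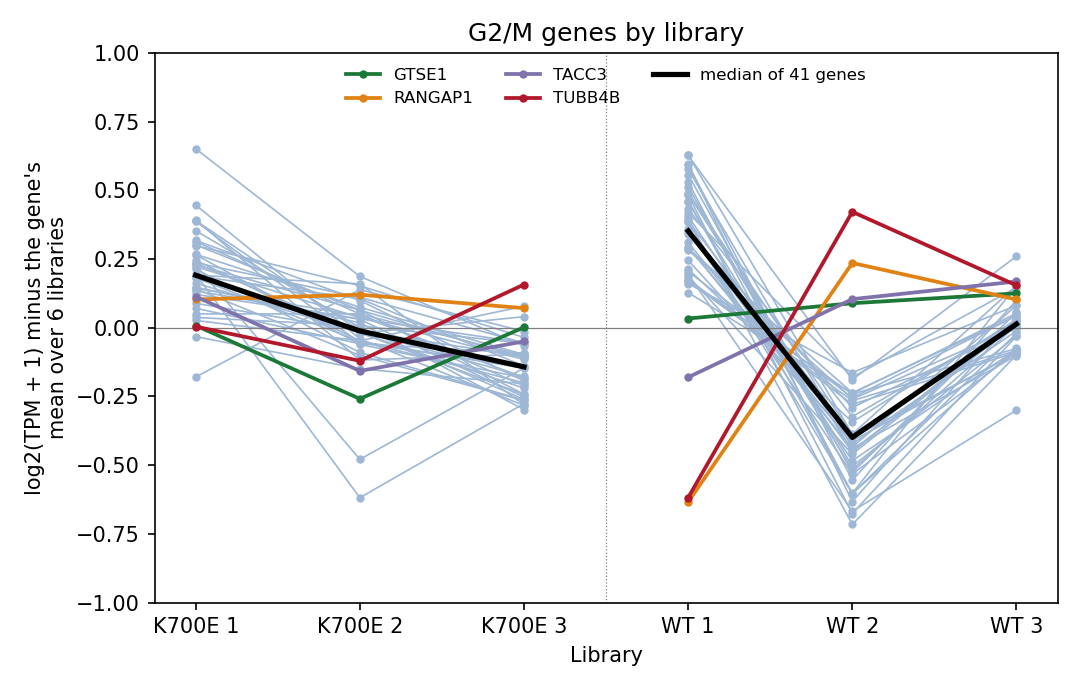
Level of each of the 41 tested genes in each library as log2(TPM + 1) minus the gene's mean over the 6 libraries, K700E left and WT right; each line joins the libraries of a group for a gene and the black line is the median. WT library 1 is the highest and WT library 2 the lowest of their group in 37 genes each, and the 4 coloured genes (GTSE1, RANGAP1, TACC3 and TUBB4B) are the exceptions.

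The median of the 41 log2 differences, K700E minus WT, was 0.03, and the differences ran between -0.46 for CCNB2 and 0.51 for ANP32E. In 36 of 41 members the absolute difference was under 0.2, against 49.1% of all tested genes. The median gene of the whole table stood at 0.13, so that the members' median lay 0.10 below it, and 31 of the 41 members were below the median gene. Differences above 0 were found for 23 members, against 69.3% of all genes. The direction of the raw median depends on this offset: with median-ratio scaling of the libraries the members' median was -0.16 and the median gene moved to -0.04, and with TMM scaling the members' median was -0.17.

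The precision of the null result can be read from the intervals. The 95% interval of a member reached 0.54 to either side at the median, against 0.44 over all genes. For 39 of 41 members it lay wholly within -1 and 1 on the log2 scale, against 81.4% of all genes. On TPM as deposited, a change by a factor of 2 in either direction was therefore outside the interval of every tested member except CCNB2 and ANP32E. Scaling the libraries moves the estimates: with median-ratio scaling CCNB2 stood at -0.64 and KIF23 at -0.44. The width varied between members, and for NCAPD2, among the narrower ones, the interval ran between -0.37 and 0.26. These intervals are not adjusted for the number of genes.

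**Figure D2:**
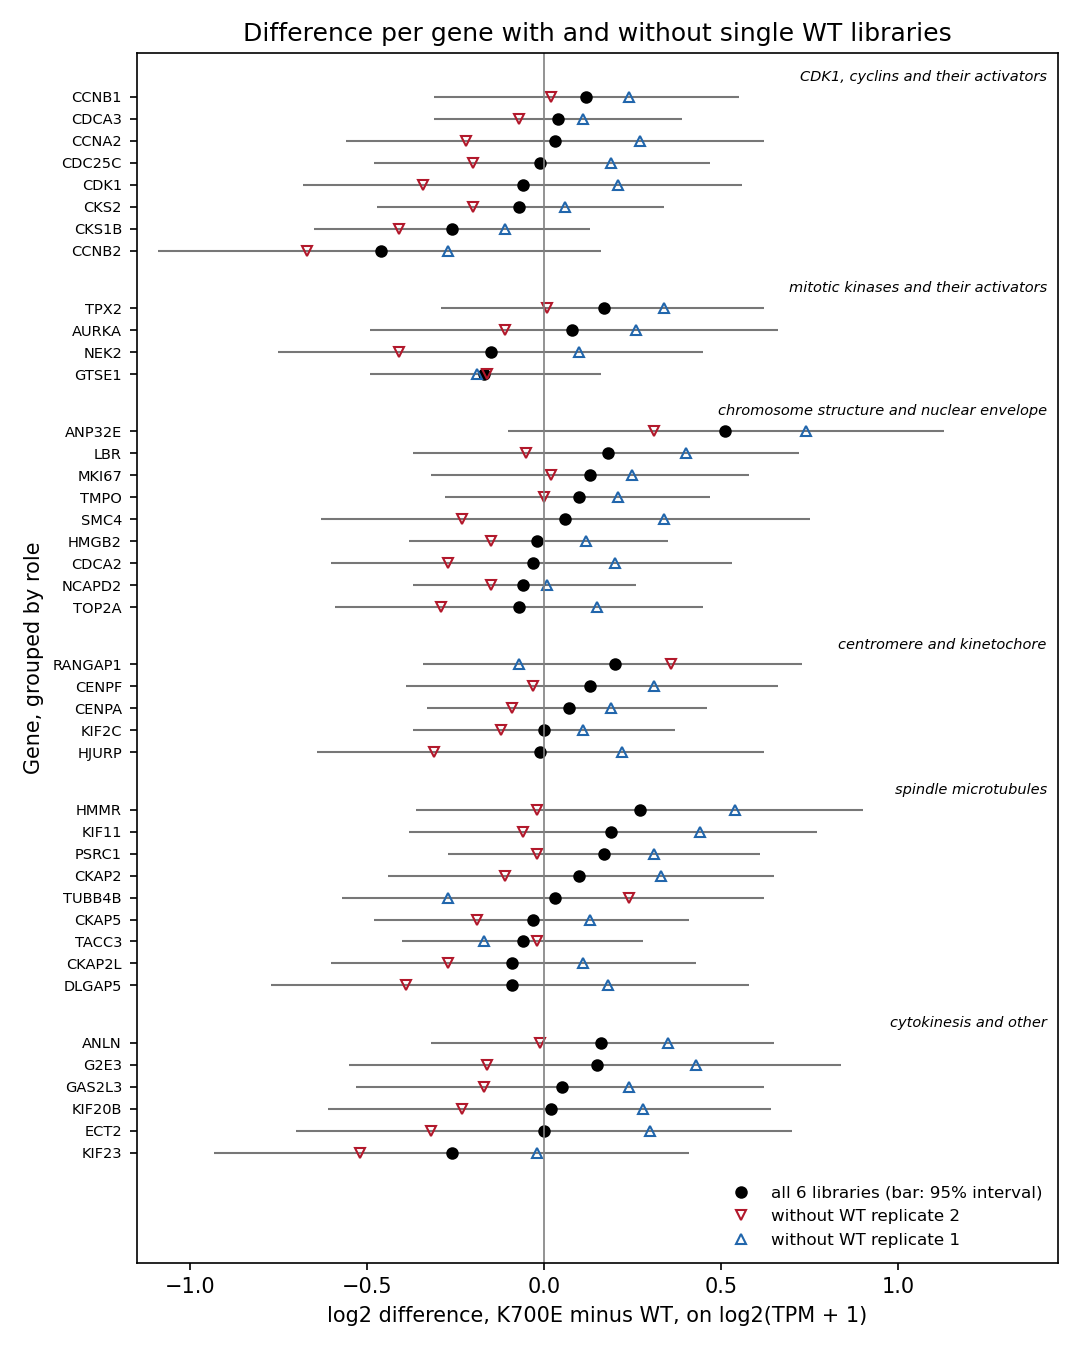
Log2 difference, K700E minus WT, with its 95% interval for each of the 41 tested genes grouped by role, and the difference recomputed without WT library 1 and without WT library 2. The intervals of all 41 genes cross 0, and the estimates without WT library 2 lie left of those with all libraries for 37 genes.

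CDK1 and the proteins that switch it on were 8 members, with 0 called and a median difference of -0.03, all 8 below the median gene. CDK1, the kinase that starts mitosis (chr10:62538212-62554610 on GRCh37, plus strand), had 301, 280 and 230 TPM in K700E libraries, against 404, 190 and 285 TPM in WT libraries. All 3 K700E values lay inside the WT range, and the difference was -0.06 (95% interval -0.68 to 0.56; limma adjusted p = 0.937). CCNB1, which encodes cyclin B1 (chr5:68462977-68474072), had 291, 204 and 207 TPM in K700E libraries, against 249, 184 and 209 TPM in WT libraries, overlapping groups with a difference of 0.12 (adjusted p = 0.789). CCNA2, cyclin A2, had 175, 156 and 126 TPM in K700E libraries, against 205, 104 and 150 TPM in WT libraries, again with every K700E value inside the WT range (0.03, adjusted p = 0.963).

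CCNB2, which encodes the second B-type mitotic cyclin (chr15:59397345-59417244 on GRCh37, plus strand), had the lowest difference of the members. It stood at 108, 61.0 and 77.6 TPM in K700E libraries, against 146, 82.5 and 113 TPM in WT libraries, so that K700E libraries 2 and 3 were below every WT library and K700E library 1 was not. The difference was -0.46 (95% interval -1.09 to 0.16; limma adjusted p = 0.444). CKS1B, the small CDK-binding subunit, was close together in K700E libraries at 204, 188 and 181 TPM, against 279, 184 and 231 TPM in WT libraries, and WT library 2 alone lay among the K700E values (-0.26, adjusted p = 0.494). CDC25C, the phosphatase that removes the inhibitory phosphates of CDK1, had 41.8, 40.9 and 39.1 TPM in K700E libraries, against 53.6, 30.8 and 41.1 TPM in WT libraries (-0.01, adjusted p = 0.991). Its SD was 1.38 TPM over K700E libraries and 11.4 TPM over WT libraries. CKS2, the paralogue of CKS1B, and CDCA3, which promotes the degradation of the CDK1 inhibitor WEE1, differed by -0.07 and 0.04.

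CCNB2 and KIF23 (-0.26) were among the 3 members with the lowest differences, and both lie on chromosome 15. In K700E library 2 the 498 tested genes of chromosome 15 stood at a median of -0.34 relative to the WT mean, against 0.11 for the 14995 genes of other chromosomes. K700E library 1 (0.22 on chromosome 15 and 0.18 elsewhere) showed no such gap, and K700E library 3 showed a smaller one (-0.01 and 0.11). CCNB2 followed the same order, at -0.03, -0.85 and -0.51 relative to the WT mean in K700E libraries 1, 2 and 3, and KIF23 stood at 0.10, -0.61 and -0.28. Whether the chromosome-wide level accounts for these genes' values was not tested.

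Mitotic kinases and their activators were 4 members, with 0 called and a median of -0.03. AURKA, the centrosomal and spindle kinase, had 132, 93.9 and 79.2 TPM in K700E libraries, against 120, 71.8 and 95.8 TPM in WT libraries (0.08, limma adjusted p = 0.899). TPX2, which activates AURKA on spindle microtubules, had 289, 245 and 217 TPM in K700E libraries, against 278, 176 and 220 TPM in WT libraries (0.17, adjusted p = 0.716). For both, K700E library 1 was the highest of the 6 libraries and WT library 2 the lowest. GTSE1, a microtubule-binding protein of G2 and S phase that also binds p53, had 21.5, 17.7 and 21.4 TPM in K700E libraries, against 21.9, 22.8 and 23.4 TPM in WT libraries. The highest K700E value was just below the lowest WT value, and the difference was small (-0.17, 95% interval -0.49 to 0.16; adjusted p = 0.599). NEK2, a kinase of centrosome separation, differed by -0.15.

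Chromosome structure and the nuclear envelope were represented by 9 members, with 0 called and a median of 0.06. ANP32E, a chaperone that removes the histone variant H2A.Z (chr1:150190717-150208504 on GRCh37, minus strand), had the highest difference of the members. It had 133, 96.1 and 80.5 TPM in K700E libraries, against 96.6, 52.7 and 68.3 TPM in WT libraries, so that K700E library 1 stood above all others while WT library 1 matched K700E library 2 (0.51, 95% interval -0.10 to 1.13; limma adjusted p = 0.386). TOP2A, the topoisomerase that untangles sister chromatids, had 228, 228 and 190 TPM in K700E libraries, against 310, 168 and 221 TPM in WT libraries (-0.07, adjusted p = 0.903). MKI67, whose protein Ki-67 coats mitotic chromosomes and is the standard proliferation marker, had 56.6, 41.4 and 38.9 TPM in K700E libraries, against 48.8, 35.3 and 40.4 TPM in WT libraries (0.13, adjusted p = 0.788). Neither of these proliferation markers separated the groups.

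SMC4, a core condensin subunit, had 106, 82.8 and 68.9 TPM in K700E libraries, against 120, 54.1 and 81.6 TPM in WT libraries (0.06, limma adjusted p = 0.943). Its value is uncertain, because 25.1% of its exon bases are also exon of TRIM59 on the opposite strand and the strand setting of the counting is not given in the sources used here. HMGB2, a DNA-bending chromatin protein and the most abundant member, averaged 692 ± 46.4 TPM in K700E libraries and 708 ± 133 TPM in WT libraries (SD, n = 3 each) and differed by -0.02. The condensin subunit NCAPD2, the lamin-binding TMPO and LBR of the inner nuclear membrane, and the phosphatase-targeting CDCA2 differed by between -0.06 and 0.18.

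At the centromere and kinetochore, 0 of 5 members were called, with a median of 0.07. CENPA, the histone H3 variant that marks centromeres, had 47.7, 44.8 and 42.1 TPM in K700E libraries, against 50.9, 34.3 and 44.7 TPM in WT libraries (0.07, limma adjusted p = 0.884). HJURP, the chaperone that deposits CENPA, had 51.0, 43.3 and 40.4 TPM in K700E libraries, against 62.2, 29.2 and 50.0 TPM in WT libraries (-0.01, adjusted p = 0.989). CENPF, a large outer kinetochore protein, had 56.2, 42.3 and 37.6 TPM in K700E libraries, against 52.4, 32.1 and 39.9 TPM in WT libraries (0.13, adjusted p = 0.809). In all 3 genes WT library 2 was the lowest of the 6 libraries. RANGAP1, the activator of the Ran GTPase, which sits at kinetochores in mitosis and at nuclear pores in interphase, ran the other way: it had 40.5, 41.0 and 39.6 TPM in K700E libraries, against 23.9, 44.5 and 40.5 TPM in WT libraries, with WT library 1 the low value (0.20, adjusted p = 0.719). KIF2C, a kinesin that depolymerises microtubules at centromeres, differed by 0.00.

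Among 10 genes of spindle microtubules, 9 were tested, with 0 called and a median of 0.03. HMMR, which links spindle microtubules to the pole, had 113, 102 and 89.4 TPM in K700E libraries, against 121, 55.4 and 85.5 TPM in WT libraries (0.27, limma adjusted p = 0.666). KIF11, the kinesin that pushes spindle poles apart, had 55.2, 50.5 and 44.9 TPM in K700E libraries, against 61.3, 30.4 and 44.3 TPM in WT libraries (0.19, adjusted p = 0.746). DLGAP5, which bundles kinetochore fibres, had 72.9, 58.9 and 52.1 TPM in K700E libraries, against 95.3, 42.4 and 67.3 TPM in WT libraries (-0.09, adjusted p = 0.903). In each, WT library 1 was the highest value and WT library 2 the lowest of all 6. PSRC1, a spindle protein that takes part in microtubule destabilisation, had 68.9, 57.6 and 60.1 TPM in K700E libraries, against 66.7, 42.2 and 59.1 TPM in WT libraries (0.17, adjusted p = 0.707). TUBB4B, a beta-tubulin also used outside mitosis (chr9:140135739-140138159 on GRCh37, plus strand), had 410, 376 and 456 TPM in K700E libraries, against 266, 548 and 455 TPM in WT libraries (0.03, adjusted p = 0.970). For TUBB4B WT library 2 was the highest and WT library 1 the lowest, the reverse of most members. TACC3 and CKAP5, partners in bridges between spindle microtubules, and the spindle proteins CKAP2 and CKAP2L differed by between -0.09 and 0.10.

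NUSAP1, which cross-links spindle microtubules near chromatin (chr15:41612992-41673248 on GRCh37, plus strand), was listed at 0.0632, 0.0185 and 0.0476 TPM in K700E libraries, against 0.0578, 0.125 and 0.0325 TPM in WT libraries, from 3 to 23 reads per library. Of its exon bases, 92.2% are also exon of another gene ID on the same strand, ENSG00000285920, which was listed at 0 in all 6 libraries. The deposited value of NUSAP1 is therefore uncertain, and it was not tested.

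Cytokinesis and the remaining functions were 6 members, with 0 called and a median of 0.03. KIF23, the motor of the central spindle, had 46.2, 27.9 and 35.4 TPM in K700E libraries, against 61.3, 29.8 and 43.8 TPM in WT libraries (-0.26, limma adjusted p = 0.697). ECT2, the exchange factor that activates RhoA at the cleavage furrow, had 34.3, 27.8 and 24.9 TPM in K700E libraries, against 43.9, 18.2 and 29.6 TPM in WT libraries (0.00, adjusted p = 0.999). G2E3, a ubiquitin ligase expressed in G2, had 13.9, 11.8 and 9.45 TPM in K700E libraries, against 15.7, 6.48 and 10.7 TPM in WT libraries (0.15, adjusted p = 0.848). For ECT2 and G2E3 the highest WT library had more than 2 times the level of the lowest, and the K700E values lay between. ANLN, a scaffold of the contractile ring, the kinesin KIF20B and GAS2L3, which links actin and microtubules, differed by 0.16, 0.02 and 0.05.

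Values per library are given for 24 tested members chosen by a rule and for TUBB4B and NUSAP1, which were added after their values were seen. The 17 tested members outside the rule, TUBB4B among them, differed by between -0.15 and 0.18, and the smallest limma adjusted p among them was 0.746.

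The spread of these genes lay inside the WT group. WT libraries were ordered 1, 3, 2 from high to low in 37 of 41 members, against 43.6% of all tested genes, and WT library 2 was lower than WT library 1 in 37 of 41, against 55.8%. The median log2 difference of WT library 2 minus WT library 1 was -0.76, against -0.09 over all genes. ECT2 had the lowest, at -1.23, and CDK1 stood at -1.08. The exceptions were TUBB4B (1.04), RANGAP1 (0.87), TACC3 (0.29) and GTSE1 (0.05). WT library 3 was the middle value in 39 of 41 members, against 75.9% of all genes, and was within 10% of the mean of WT libraries 1 and 2 in 38 of 41, against 67.7%.

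The SD of log2(TPM + 1) over WT libraries had a median of 0.41 for the members and 0.23 for all genes, and over K700E libraries 0.20 and 0.18. The range over WT libraries, 0.81 at the median, exceeded the absolute difference between genotypes in 40 of 41 members, against 73.3% of all genes, with GTSE1 the exception. In 28 of 41 members all 3 K700E values lay within the WT range, against 24.3% of all genes. Every K700E library was above WT library 2 in 33 of 41 members (50.3% of all genes), and every K700E library was below WT library 1 in 30 of 41 (23.5%). A smaller ordering was present in K700E: library 1 was the highest in 36 of 41 (47.2%) and library 3 the lowest in 32 of 41 (41.2%), with a median log2 difference of library 1 minus library 3 of 0.38, against 0.09 over all genes.

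**Figure D3:**
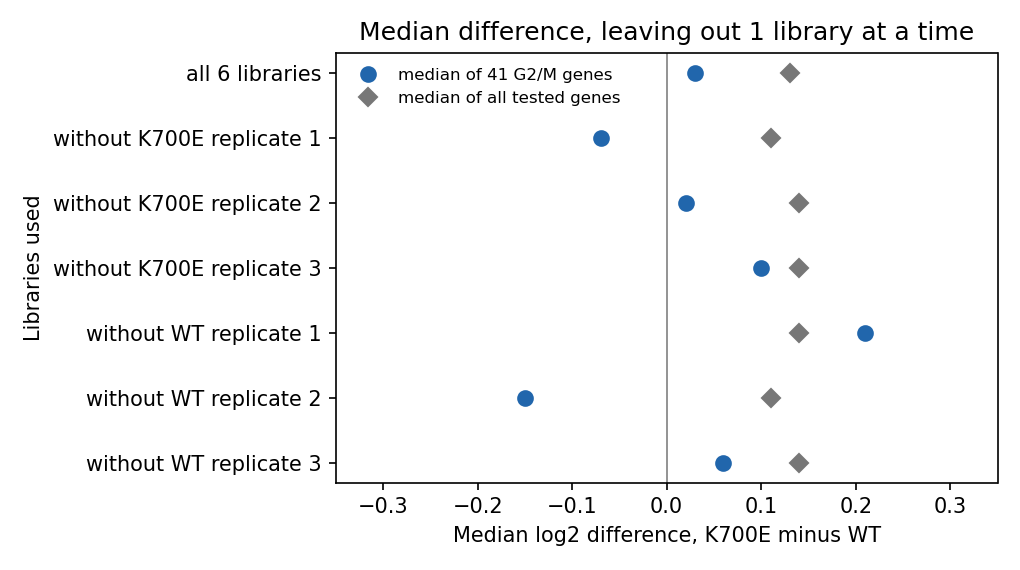
Median log2 difference, K700E minus WT, of the 41 genes and of all 15493 tested genes with all libraries and with each library left out. The members' median is 0.03 with all libraries, -0.15 without WT library 2 and 0.21 without WT library 1, while that of all genes stays between 0.11 and 0.14 in these settings.

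On TPM as deposited, the members' median was above 0 with all libraries and below 0 without WT library 2. With all libraries it was also below 0 under other processing. It was -0.16 with median-ratio scaling, -0.17 with TMM scaling, -0.07 without ribosomal protein and mitochondrial genes and -0.02 with limma-voom. Without WT library 2 the median was -0.15, against 0.11 for all genes. In that setting 7 of 41 differences were above 0 and 38 of 41 members were below the median gene. Leaving it out moved the difference downward in 37 of 41 members (56.6% of all genes), by -0.19 at the median, against -0.02 over all genes. The sign changed in 16 of 41 members, against 14.9% of all genes. CDK1 stood at -0.34 without WT library 2, CCNB2 at -0.67, DLGAP5 at -0.39 and CKS1B at -0.41, while TUBB4B moved to 0.24 and RANGAP1 to 0.36.

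WT library 1 moved the members as far in the other direction. Without WT library 1 the members' median was 0.21, 34 of 41 differences were above 0, 15 of 41 were below the median gene, and the sign changed in 15 of 41 members, against 14.8% of all genes. CDK1 then stood at 0.21, HMMR at 0.54 and ANP32E at 0.74. Over both settings, 31 of 41 members had a difference whose sign rested on WT library 1 or WT library 2, against 29.6% of all genes. Neither setting gave a call: 0 of 41 members passed without WT library 2 (0.807% of all genes did; smallest limma adjusted p = 0.267), and 0 of 41 without WT library 1 (1.17%; smallest limma adjusted p = 0.132). At an unadjusted p under 0.05 there were 2 members without WT library 2, CCNB2 and CKS1B, against 2300 of all genes. Without WT library 1 there were 2, ANP32E and HMMR, against 3760. Signs also changed without the other libraries: in 10, 5 and 11 of 41 members without K700E libraries 1, 2 and 3 (10.9%, 7.29% and 8.77% of all genes). Without WT library 3 the sign changed in 3 of 41 (4.72%). The median absolute difference, with all libraries, was 0.09 for the members and 0.21 for all genes.

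The groups did not overlap in 4 of 41 members without WT library 2, against 33.6% of all genes, namely CCNB2, CKS1B, GTSE1 and NCAPD2, all lower in K700E. Without WT library 1 there were 5 such members, against 45.7% of all genes: ANP32E, HMMR, KIF11 and ANLN, higher in K700E, and GTSE1, lower in K700E. Without WT library 3 the median was 0.06. Leaving out K700E libraries 1, 2 and 3 in turn gave medians of -0.07, 0.02 and 0.10, so that K700E library 1 also decided the sign. These medians lay within 0.26 of 0, the pooled SD between libraries of the members' mean log2 level. Taken relative to the median gene, the value without WT library 2 was -0.26, and the pooled SD of the members' mean relative to all genes was 0.25. Both SDs are between single libraries within a group, with WT library 2 among them. They do not measure the spread of a difference between groups, and these shifts were not tested.

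The gaps between libraries of the same genotype varied with transcript composition. The median GC content of the members' longest transcripts was 42.3%, against 48.3% over all tested genes with a value. Across the 41 members, the log2 difference of WT library 2 minus WT library 1 increased with GC content (Spearman's rho 0.74, Pearson's r 0.79), and across 15129 tested genes the values were 0.71 and 0.70. In K700E, the log2 difference of library 1 minus library 3 decreased with GC content (Spearman's rho -0.59 across members and -0.46 across tested genes). These are descriptions across genes of the same pairs of libraries, and genes are not independent replicates. The 4 members higher in WT library 2, TUBB4B, RANGAP1, TACC3 and GTSE1, had GC contents of 54.1% to 59.5%, and the 37 others ran between 32.9% and 55.9%, with a median of 41.8%.

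**Figure D4:**
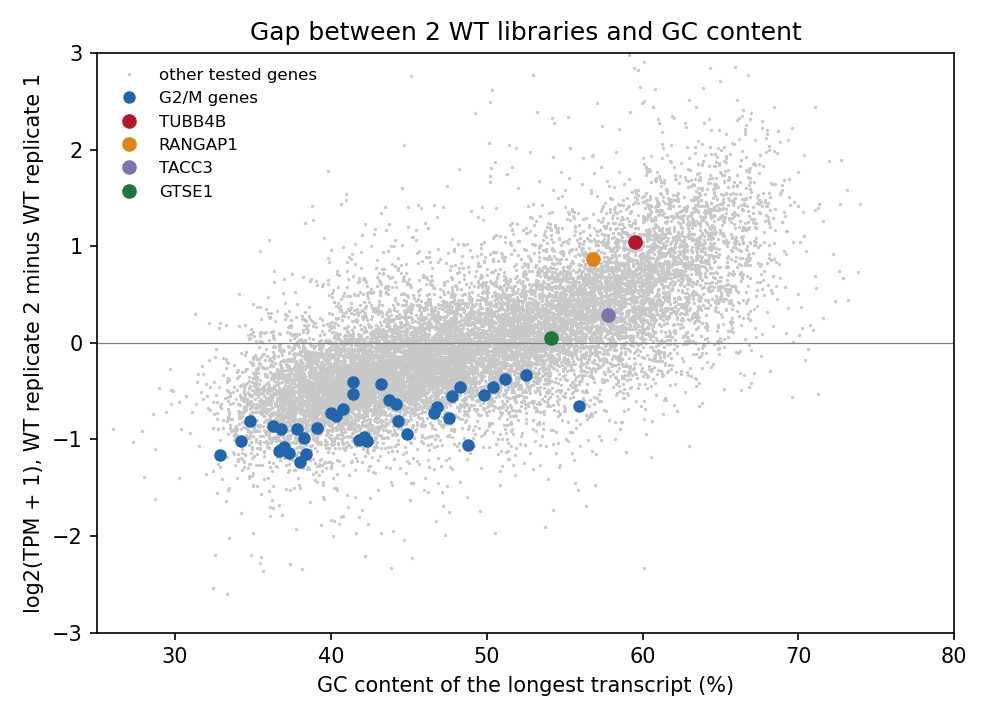
Log2 difference of WT library 2 minus WT library 1 against the GC content of the longest transcript in percent, for the 41 genes over all tested genes with a GC value (genes beyond the axes are not drawn). The members lie mostly at low GC and below 0, and the 4 above 0 have GC contents of 54.1% to 59.5%.

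The gap between the WT libraries was smaller with GC content taken out but did not vanish. After the trend with GC was removed from each library, the median of WT library 2 minus WT library 1 was -0.42 for the members and -0.01 for all genes, and 39 of 41 members were lower in WT library 2, against 51.1% of all genes. The mean log2(TPM + 1) of the members was then 6.33, 6.13 and 6.11 in K700E libraries, against 6.33, 5.95 and 6.23 in WT libraries. K700E library 1 then equalled WT library 1 to 2 decimals, the other K700E values lay between the extremes of WT, and the median difference was 0.03. In the same libraries ribosomal protein genes took 16.7%, 17.3% and 17.4% of TPM in K700E, against 19.5%, 25.5% and 22.3% in WT, with WT library 2 the highest. The part of the ribosomal share in the members' gap was not tested.

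The regulators of these genes and their neighbours in the pathway were examined from lists of symbols. Of 16 subunits and partners of MuvB, B-MYB, FOXM1, NF-Y and E2F, 0 were called, with a median difference of 0.14, near the median gene. NFYA, the subunit of NF-Y that contacts the CCAAT box, had 53.8, 57.9 and 51.2 TPM in K700E libraries, against 47.3, 37.1 and 40.2 TPM in WT libraries. Its groups did not overlap, but the difference did not pass the test (0.38, limma adjusted p = 0.239). RBL2, the pocket protein p130, had 42.6, 43.6 and 43.7 TPM in K700E libraries, against 43.7, 27.6 and 33.7 TPM in WT libraries (0.32, adjusted p = 0.426).

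Of 13 other genes of the mitotic entry switch, 0 were called, with a median of 0.06. CCNF, cyclin F, had 31.4, 29.6 and 30.7 TPM in K700E libraries, against 23.4, 24.6 and 28.4 TPM in WT libraries (0.26, limma adjusted p = 0.394), and CDC25A, another CDK-activating phosphatase, differed by 0.28 (adjusted p = 0.525). Of 23 other mitotic genes, 0 were called, with a median of -0.01. NCAPH, the kleisin of condensin, had 26.2, 19.9 and 23.2 TPM in K700E libraries, against 36.5, 27.3 and 32.0 TPM in WT libraries, without overlap (-0.45, adjusted p = 0.245). RACGAP1, the partner of KIF23 in the central spindle, had 75.0, 68.1 and 59.2 TPM in K700E libraries, against 63.1, 42.4 and 51.1 TPM in WT libraries (0.38, adjusted p = 0.353). Of the other condensin subunits, SMC4 stood at 0.06 (-0.23 without WT library 2) and NCAPD2 at -0.06, beside NCAPH at -0.45. KIF23 stood at -0.26 beside RACGAP1 at 0.38. None of these genes passed the test, and differences in direction within a complex were not tested.

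Beside the members, 24 tested spindle checkpoint genes had 0 called, a median difference of 0.02, a median of WT library 2 minus WT library 1 of -0.74, and medians of -0.15 without WT library 2 and 0.16 without WT library 1. The 45 genes of G1/S and replication had 0 called and a median of 0.23, beside 0.13 for the median gene. Their median was 0.10 without WT library 2 and 0.32 without WT library 1, beside 0.11 and 0.14 for the median gene. On TPM as deposited, their summed level was 4490 to 4840 TPM in K700E libraries, against 3730 to 4440 TPM in WT libraries. These sums did not overlap, where those of the G2 and M genes did. The nearest were close, at 4486 TPM in K700E library 3 and 4442 TPM in WT library 1. Median-ratio scaling divides these 2 libraries by 1.05 and 0.957, which reverses their order, so the separation does not hold after scaling. The difference between the G1/S and the G2 and M genes was not tested.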

How the data were processed

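RNA from 3 K700E and 3 WT libraries was extracted on magnetic beads and sequenced from mRNA libraries, per the labels' protocols. The authors deposited TPM per gene in a table for each genotype, with gene lengths and GRCh37 exons per the file headers. GRCh37 (hg19), featureCounts 2.0.1, cutadapt 2.10, DESeq2 and TopHat2 2.1 are named in the submitters' processing notes. WT column names end as STAR's sorted files do, so the aligner is not settled, and the strand setting is not given in the sources used here. A difference in processing between the tables cannot be told apart from genotype.

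Of 62111 gene IDs, 58561 (94.3%) matched a symbol. Each column summed to 1000000 TPM, and TPM multiplied by length gave whole reads for 100% of values within a tolerance of 0.01. Genes of at least 1 TPM on average were compared on the log2(TPM + 1) scale by limma 3.58.1, run in R 4.3.3 (empirical Bayes with a trend, genotype as the only term, two-sided, Benjamini-Hochberg at 0.05). A fold on this scale understates changes of low genes. GC content came from the longest GENCODE transcript of each gene, joined by gene ID (97.7% of tested genes), and was removed by a lowess of span 0.3 in each library. Promoters came from RefSeq on GRCh38.p14. The scripts ran in Python 3.11.15 and were checked on simulated data.

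The members and all lists were chosen with earlier results of these data known. Values per library were given for 24 members by a rule: 11 chosen for their role, the 8 with the smallest limma p, the 4 with the largest difference in each direction, and the 6 whose difference moved most without WT replicate 2. Of each pathway list, the 2 genes with the smallest limma p were named. Alternatives were the pseudocount, the filter, the scaling, ribosomal protein and mitochondrial genes left out, no trend, the replicate block, limma-voom on recovered reads, GC correction and each library left out.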

Additional observations from a re-analysis of the deposited data

How the results depend on the processing

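In all 20 alternatives 0 members were called, and the smallest limma adjusted p in any of them was 0.0901, for ANP32E after GC correction. With all 6 libraries, 3 members had an unadjusted limma p under 0.05 with median-ratio and with TMM scaling: CKS1B, CCNB2 and GTSE1. Those settings had 2297 and 2317 such genes of 15493. The replicate block had 2 such members, ANP32E and CCNB2, against 2502 of all genes. GC correction had 2, ANP32E and CKS1B, against 4021 of 15129. The members' median difference (0.03) lay between -0.15 and 0.21 with a library left out, and the count below the median gene (31) between 15 and 38. With all 6 libraries kept, the median difference lay between -0.17 and 0.03 over the alternatives, with TMM scaling the lowest. Members whose groups did not overlap numbered 1 with all libraries (24.0% of all genes) and 1 to 5 with a library left out (26.3% to 45.7% of all genes). They numbered 3 with median-ratio scaling (21.1% of all genes), 3 with TMM scaling (21.5%), 2 without ribosomal protein and mitochondrial genes (20.7%) and 4 after GC correction (34.9%). After GC correction without WT replicate 1, 2 and 3 in turn, alternatives chosen after seeing the data, they numbered 8, 15 and 4 of 41 (19.5%, 36.6% and 9.76%), against 47.9%, 45.4% and 37.7% of all genes, so that the members' share was below that of all genes in each of these settings. The cause of these shifts was not tested. The calls over all genes, 214 with all libraries, numbered 708 after GC correction, 92 at a minimum mean of 5 TPM, 0 of 38861 without a filter (4891 at an unadjusted p under 0.05), 67 with the replicate block, 0 without WT replicate 3 and 23 after GC correction without WT replicate 3. Deviations of same-numbered libraries correlated at 0.28, -0.19 and 0.30 over tested genes, and at 0.42, -0.18 and 0.51 over the members. Those of K700E library 3 and WT library 2, which differ in number, correlated at 0.43 and 0.59. Whether the replicate numbers pair the libraries cannot be settled from these values. With the replicate block the members' median was 0.03, the smallest limma adjusted p was 0.184, for CCNB2, and 0 members were called. Of the 24 members chosen by rule, the sign of the difference changed in 9 without WT replicate 2 and 7 without WT replicate 1, with no call at either sign. It changed in 11 with TMM and 10 with median-ratio scaling, which shift all genes of a library alike and move the median gene to -0.05 and -0.04. With 3 libraries a group, the unadjusted 95% interval of a typical member reached 0.54 on the log2 scale to either side. A call after adjustment over 15493 genes would need a larger difference than that.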
